A study of Drosophila melanogaster with 12 samples.

Results

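The epidermal growth factor receptor (EGFR) pathway was followed in cultured Drosophila larval organs through 10 genes: the ligand gene vn and the protease gene rho, the receptor gene Egfr, the nuclear effector genes pnt and aop, the inhibitor genes aos, sty, kek1 and Mkp3, and rau. Members were taken by gene symbol and were measured by 12 of the 13966 probe sets on the array, with 2 probe sets each for Egfr and Mkp3. The array platform's annotation named 9 of these probe sets (7 genes). The other 3, for vn, rho and pnt, were named through the study's supplementary probe lists, and that for pnt is listed there as an expressed sequence tag. Organs of wandering larvae of the last instar, about 8 h before pupariation, were dissected from 8 animals per well, preincubated for 1 h and cultured for 6 h at 25 °C in Schneider's medium. The medium held 5 µM 20-hydroxyecdysone (20E, the insect moulting steroid, whose pulses start metamorphosis) plus 85 µM cycloheximide (an inhibitor of protein synthesis), 20E alone, cycloheximide alone, or no hormone and no inhibitor. The methods name w1118, a white-eyed laboratory strain, for the array studies, and each of the 4 groups had 3 separately harvested cultures on 1 array each. All organs of a culture were pooled, so a lower transcript level in a cell type and fewer cells of that type cannot be told apart.

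In Drosophila, the EGFR is activated by secreted ligands. Spitz-class ligands are made as membrane precursors that rhomboid proteases cut, whereas Vein is secreted directly. The signal passes through Ras and the MAP kinase Rolled to the ETS proteins Pointed, which activates target genes, and Anterior open (Yan), which represses them until it is phosphorylated. Argos, Sprouty and Kekkon-1 are classic feedback inhibitors that the pathway itself induces, and Mkp3 removes phosphate from MAP kinase. Rau carries Ras-association domains and sustains receptor tyrosine kinase signalling in the developing eye and glia. The pathway is best known in larval organs for patterning wing veins and ommatidia in the imaginal discs.

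The comparison of 20E with no hormone asks which of these genes respond to the hormone. That of 20E plus cycloheximide with cycloheximide asks which respond while protein synthesis is blocked. Eip74EF, an ETS factor gene directly induced by 20E, was higher by 3.45 on the log2 scale with 20E than with no hormone (adjusted p = 3.63e-05) and by 2.50 with 20E plus cycloheximide than with cycloheximide (adjusted p = 0.000406). Of 5 known 20E response genes (Eip74EF, Eip75B, Eip78C, Hr3 and Sox14), 4 were called higher in both comparisons. The brighter of 2 Hr3 probe sets gave -0.04 (adjusted p = 0.864) and 0.12 (adjusted p = 0.678), and the other is not shown here. The paper lists this gene, as DHR3, among those induced by 20E with and without cycloheximide. Array medians lay between 114 and 118 in linear intensity, and replicates of a group had Pearson correlations of log2 intensity between 0.983 and 0.993 across probe sets. The sample labels give whole animal as the source but organ culture in the titles, and the markers had signal for organs: over all arrays, 6 salivary glue genes summed to intensities of 31400 to 42100, 3 fat body markers to 18600 to 22500 and 4 midgut markers to 8880 to 13000. The summed intensity of 5 of 5 imaginal disc markers (wg, vg, ap, nub, Dll) was 955 to 1040 with 20E plus cycloheximide, 870 to 914 with 20E, 1020 to 1080 with cycloheximide and 837 to 917 with no hormone. It was thus higher on all 6 arrays with cycloheximide than on all 6 without, and its part in the results below was not tested. Taken singly, nub, the brightest, showed this too, while wg, vg, ap and Dll overlapped. The log2 fold change of ap was -0.004 with cycloheximide relative to no hormone, where the other disc markers were positive. With 20E plus cycloheximide relative to 20E, ap (-0.155) and wg (-0.035) were negative and vg, nub and Dll positive. Only vg among the disc markers was called, at 0.96 higher on the log2 scale (adjusted p = 0.00952) with cycloheximide than with no hormone. No marker of the other 7 tissues was called in any comparison. The largest marker difference was that of the midgut amylase gene Amy-d, whose log2 fold change was -1.63 with 20E relative to no hormone (SE 0.43, adjusted p = 0.108) and -1.15 with 20E plus cycloheximide relative to cycloheximide (SE 0.43, adjusted p = 0.364), with all arrays lower in both; its part in the differences with 20E was not tested.

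Cycloheximide alone gave calls for rau, aop, rho and pnt, and 20E alone gave a call for aos. The limits for a call were a difference of 1.3-fold or more and an adjusted p below 0.10, and Egfr and Mkp3 were each counted by their brighter probe set. With cycloheximide relative to no hormone, rho, aop and rau rose and pnt fell (4 of 10 genes; 4.42% of all probe sets were called). Relative to 20E, 20E plus cycloheximide gave rises of aos and rau and a fall of Egfr (3 of 10 genes; 1.99% of all probe sets). With 20E relative to no hormone only aos was called, and it fell (1 of 10 genes; 2.16% of all probe sets). Only rau was called with 20E plus cycloheximide relative to cycloheximide, and it fell (1 of 10 genes; 1.25% of all probe sets). These comparisons share arrays, so their counts do not add up as separate evidence. vn, rho and pnt were named only through lists of genes reported as changed. The shares, medians and overlap counts of the members are therefore not like for like with those of all probe sets.

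The median log2 fold change of the 10 genes was 0.19 with cycloheximide relative to no hormone, beside -0.03 over all probe sets, and 0.14 with 20E plus cycloheximide relative to 20E, beside -0.01 over all. With 20E relative to no hormone it was 0.01 (over all, -0.01), and with 20E plus cycloheximide relative to cycloheximide it was -0.09 (over all, 0.02). Counted by probe set, 6 of 12 lay with all 3 cycloheximide arrays above all 3 no hormone arrays and 1 with all below, where 27.1% of all probe sets did not overlap either way. For 20E plus cycloheximide relative to 20E, 4 of 12 lay above and 2 below (18% of all probe sets). With 20E relative to no hormone, 1 lay above and 2 below (20.7%), and with 20E plus cycloheximide relative to cycloheximide 0 lay above and 4 below (13.9%).

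**Figure D1:**
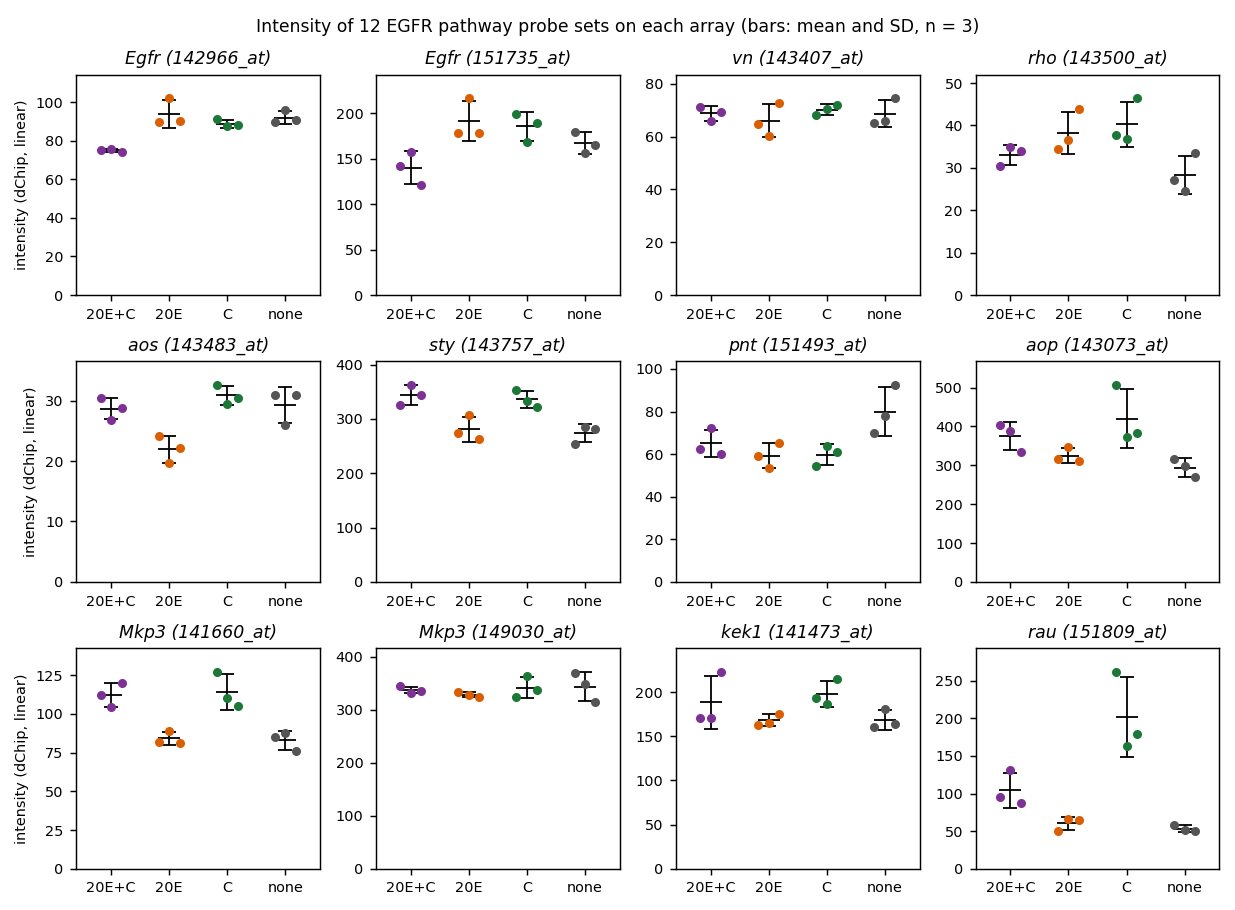
Linear dChip intensity (y axis, from 0, with its own scale in each panel) of the 12 probe sets of the 10 genes on each array, by treatment (x axis; 20E+C, 20E plus cycloheximide; C, cycloheximide; none, no hormone). Points are arrays in the order of replicates 1 to 3, and bars are the mean and SD of 3 arrays. rau has its highest values with cycloheximide (163 to 262) and its lowest with no hormone (49.8 to 58.7), while the vn arrays all lie between 60.4 and 74.6.

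vn, which encodes the neuregulin-like ligand Vein, was called in no comparison. Its intensities were 71.4, 65.8 and 69.2 with 20E plus cycloheximide, 65.0, 60.4 and 72.9 with 20E, 68.2, 70.5 and 72.1 with cycloheximide, and 65.4, 66.1 and 74.6 with no hormone. The 4 groups overlapped throughout. The 4 pairwise log2 fold changes lay between -0.06 and 0.06, with adjusted p-values from 0.784 to 0.947. With 20E relative to no hormone the 95% interval of the log2 fold change was -0.23 to 0.12.

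rho encodes Rhomboid-1, the intramembrane protease that releases the Spitz ligand. Its intensities were low, at 30.3, 34.8 and 34.1 with 20E plus cycloheximide, 34.5, 36.6 and 43.8 with 20E, 37.7, 36.7 and 46.5 with cycloheximide, and 27.1, 24.6 and 33.4 with no hormone. All cycloheximide arrays and all 20E arrays lay above the no hormone arrays. rho rose 1.42-fold with cycloheximide relative to no hormone (log2 fold change 0.51, SE 0.13, adjusted p = 0.0546). The log2 fold change with 20E relative to no hormone was 0.44 (SE 0.13, adjusted p = 0.151), which was not called but would be without no hormone replicate 3 (adjusted p = 0.0875). With both agents the level was 33.1 ± 2.41, and the log2 fold change was -0.28 relative to cycloheximide (adjusted p = 0.51), although the arrays did not overlap, and -0.21 relative to 20E (adjusted p = 0.546). All 12 rho intensities were under 50, as were 15.7 to 17.5% of the intensities on each array. The rho call was lost without no hormone replicate 1 or 2 or cycloheximide replicate 1 or 3 (adjusted p 0.108 to 0.198).

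Egfr, the single Drosophila EGFR gene, was lowest with both agents on both of its probe sets. The dimmer probe set, 142966_at, had 75.3, 75.9 and 74.0 with 20E plus cycloheximide, 89.5, 102 and 90.2 with 20E, 91.1, 87.5 and 88.0 with cycloheximide, and 89.7, 96.0 and 90.6 with no hormone. All 3 arrays with both agents lay below the other 9. The log2 fold change relative to 20E was -0.32 (SE 0.07, adjusted p = 0.0352), a 1.25-fold lower level that did not reach the fold limit. Relative to cycloheximide it was -0.24 (adjusted p = 0.148).

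The brighter Egfr probe set, 151735_at, had 142, 158 and 121 with 20E plus cycloheximide, 179, 217 and 178 with 20E, 199, 169 and 189 with cycloheximide, and 180.1, 156 and 165 with no hormone. The arrays with both agents lay below those with 20E and those with cycloheximide, but 1 of them, at 158, lay above the lowest no hormone array. Egfr fell by 0.45 on the log2 scale relative to 20E (SE 0.11, adjusted p = 0.0798), and this call was lost without no hormone replicate 3, any 20E replicate, replicate 1 or 3 with both agents, or cycloheximide replicate 3 (adjusted p 0.102 to 0.256). Relative to cycloheximide the log2 fold change was -0.41 (adjusted p = 0.163), and it was called without replicate 2 with both agents (adjusted p = 0.0812). Neither agent alone gave a call on this probe set: the log2 fold change relative to no hormone was 0.19 with 20E (adjusted p = 0.459) and 0.15 with cycloheximide (adjusted p = 0.467). Over the 12 arrays the log2 values of both Egfr probe sets had a Pearson correlation of 0.79, a description over arrays that share treatments.

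pnt encodes the ETS activator at the end of the pathway. Its intensities were 62.4, 72.4 and 60.2 with 20E plus cycloheximide, 59.0, 53.6 and 65.4 with 20E, 54.4, 63.9 and 61.1 with cycloheximide, and 69.8, 77.7 and 92.5 with no hormone. All no hormone arrays lay above the 3 arrays with 20E and the 3 with cycloheximide. pnt fell by 0.41 on the log2 scale with cycloheximide relative to no hormone (SE 0.12, adjusted p = 0.0728). The log2 fold change with 20E relative to no hormone was of like size, -0.43 (SE 0.12), but its adjusted p was 0.115. With both agents the level was 65.0 ± 6.51, and the log2 fold change was 0.12 relative to cycloheximide (adjusted p = 0.809) and 0.13 relative to 20E (adjusted p = 0.686). The cycloheximide call was lost without no hormone replicate 2 or 3 or cycloheximide replicate 1 or 3 (adjusted p 0.143 to 0.247). The 20E difference was called without no hormone replicate 1 or without replicate 2 with both agents. It was also called with a floor of 1 on the intensities, with median centring, and with the replicate number as a block.

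aop encodes the ETS repressor that opposes Pointed. Its intensities were 403, 387 and 335 with 20E plus cycloheximide, 315, 346 and 312 with 20E, 507, 372 and 382 with cycloheximide, and 316, 297 and 269 with no hormone. All cycloheximide arrays exceeded all no hormone arrays, and cycloheximide replicate 1 was the highest of the 12. aop rose 1.42-fold with cycloheximide relative to no hormone (log2 fold change 0.50, SE 0.12, adjusted p = 0.037). The call was lost without no hormone replicate 2 or 3 or cycloheximide replicate 1 (adjusted p 0.104 to 0.135). In the presence of 20E, the log2 fold change for cycloheximide was 0.21 (adjusted p = 0.49). That for 20E was 0.14 without cycloheximide (adjusted p = 0.609) and -0.15 with it (adjusted p = 0.737).

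aos encodes Argos, a secreted inhibitor that binds the Spitz ligand. Its intensities were 30.5, 26.9 and 28.7 with 20E plus cycloheximide, 24.1, 19.7 and 22.1 with 20E, 32.6, 29.5 and 30.5 with cycloheximide, and 30.9, 25.9 and 31.0 with no hormone. The 20E arrays were the lowest of all, below every array of the other 3 groups. aos fell by 0.41 on the log2 scale with 20E relative to no hormone (SE 0.10, adjusted p = 0.0647), a 1.33-fold lower level. It was 1.31-fold higher with 20E plus cycloheximide than with 20E (log2 fold change 0.39, SE 0.10, adjusted p = 0.0811). With cycloheximide present the 20E difference was -0.11 (adjusted p = 0.794), and cycloheximide relative to no hormone gave 0.08 (adjusted p = 0.674). All 12 aos intensities were under 50. The 20E call was lost without no hormone replicate 1 or 3 or 20E replicate 2 or 3 (adjusted p 0.139 to 0.261), and the other without replicate 2 or 3 with 20E or with cycloheximide or replicate 1 or 3 with both agents (adjusted p 0.106 to 0.231).

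sty encodes Sprouty, an intracellular inhibitor of receptor tyrosine kinase signalling. Its intensities were 325, 362 and 344 with 20E plus cycloheximide, 274, 307 and 263 with 20E, 353, 333 and 322 with cycloheximide, and 254, 286 and 282 with no hormone. The 6 arrays with cycloheximide, at 322 to 362, all lay above the 6 without, at 254 to 307. The log2 fold change was 0.29 with cycloheximide relative to no hormone (SE 0.08, 95% interval 0.12 to 0.47, adjusted p = 0.0581) and 0.29 with 20E plus cycloheximide relative to 20E (SE 0.08, adjusted p = 0.102). Both were 1.23-fold, under the fold limit, and the second also missed the limit on the adjusted p, so sty was called in neither. 20E moved sty by 0.03 with or without cycloheximide.

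kek1 encodes Kekkon-1, a transmembrane protein that binds the receptor and inhibits it. Its intensities were 171, 171 and 223 with 20E plus cycloheximide, 163, 165 and 176 with 20E, 193, 187 and 215 with cycloheximide, and 161, 182 and 164 with no hormone. The cycloheximide arrays lay above the no hormone arrays, with a log2 fold change of 0.23 (SE 0.10, adjusted p = 0.223), which was not called. Of the arrays with both agents, replicate 3 was the highest of the 12 and the other 2 lay within the range of the arrays without cycloheximide. The other 3 pairwise log2 fold changes of kek1 lay between -0.08 and 0.15, and none was called.

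Mkp3 encodes a MAP kinase phosphatase, and its 2 probe sets gave different results. On 141660_at the intensities were 112, 105 and 120.2 with 20E plus cycloheximide, 82.0, 89.1 and 81.4 with 20E, 127, 110.3 and 105 with cycloheximide, and 85.2, 87.8 and 76.2 with no hormone. All 6 arrays with cycloheximide (105 to 127) lay above the 6 without (76.2 to 89.1). The probe set rose 1.37-fold with cycloheximide relative to no hormone (log2 fold change 0.46, 95% interval 0.27 to 0.65, adjusted p = 0.0151). It rose 1.33-fold with 20E plus cycloheximide relative to 20E (log2 fold change 0.41, 95% interval 0.22 to 0.61, adjusted p = 0.0444). This second call was lost without replicate 1 or 3 with 20E or with both agents (adjusted p 0.109 to 0.174). It was also lost with log2 of the value plus 16 and with only the arrays compared. 20E itself gave log2 fold changes of 0.02 without cycloheximide and -0.02 with it.

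On the brighter Mkp3 probe set, 149030_at, the intensities were 344, 332 and 335 with 20E plus cycloheximide, 333, 328 and 323 with 20E, 324, 363 and 337 with cycloheximide, and 368, 349 and 314 with no hormone. The groups overlapped, and the log2 fold change with cycloheximide relative to no hormone was -0.01 (95% interval -0.16 to 0.14, adjusted p = 0.963). With 20E plus cycloheximide relative to 20E it was 0.04 (95% interval -0.12 to 0.19, adjusted p = 0.869). In each comparison the intervals of the 2 probe sets did not overlap, though the difference between probe sets was not itself tested. The log2 values of the 2 probe sets had a Pearson correlation of 0.15 over the 12 arrays. RefSeq lists CG14080 and CG14081 as older names of Mkp3, which were annotated as separate genes. Mkp3 in the counts of genes above is the brighter probe set, and with the other it would add 1 rise to both cycloheximide comparisons.

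rau showed the largest differences among the members, with group means that spanned 1.89 on the log2 scale. Its intensities were 94.8, 131 and 86.9 with 20E plus cycloheximide, 50.2, 66.1 and 65.1 with 20E, 262, 163 and 179.7 with cycloheximide, and 58.7, 51.9 and 49.8 with no hormone. The cycloheximide arrays were all above those with both agents, which were all above the 6 arrays without cycloheximide. With cycloheximide relative to no hormone rau rose 3.70-fold (log2 fold change 1.89, SE 0.19, adjusted p = 0.000403), a call that held in all 23 alternative analyses. Cycloheximide replicate 1, at 262, was the highest array.

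With 20E plus cycloheximide relative to cycloheximide, rau was 1.92-fold lower (log2 fold change -0.94, SE 0.19, adjusted p = 0.0398). This call was lost without replicate 1 or 3 with both agents or cycloheximide replicate 1 (adjusted p 0.142 to 0.173). Relative to 20E, rau was 1.71-fold higher with both agents (log2 fold change 0.77, SE 0.19, adjusted p = 0.0763), and the call was lost without no hormone replicate 2, cycloheximide replicate 3, or any replicate with 20E or with both agents (adjusted p 0.102 to 0.184). 20E without cycloheximide gave a log2 fold change of 0.17 (SE 0.19, adjusted p = 0.719), and the 20E arrays overlapped those with no hormone.

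**Figure D2:**
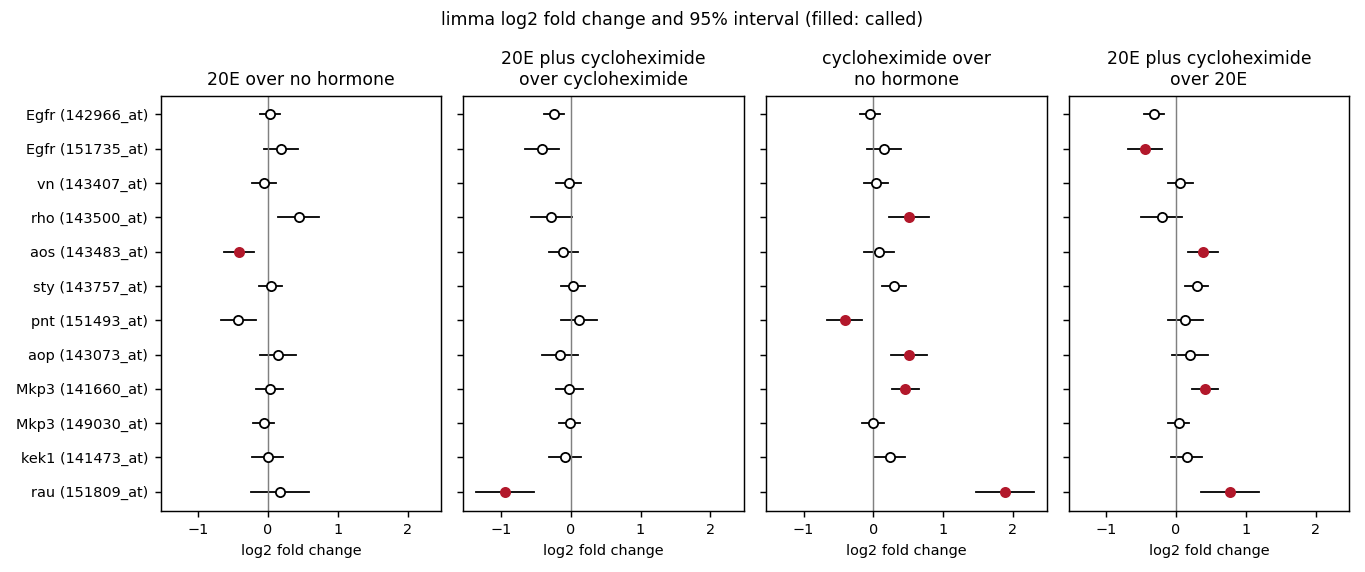
Log2 fold change (x axis) of each probe set (y axis) in the 4 pairwise comparisons, with 95% intervals from limma as bars. Filled points were called. rau stands farthest from 0 in cycloheximide over no hormone (1.89) and in 20E plus cycloheximide over cycloheximide (-0.94), and in the 2 cycloheximide panels the Mkp3 probe set 141660_at lies right of 0 while 149030_at lies at 0.

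Whether cycloheximide changed the 20E response was tested as an interaction, the 20E difference with cycloheximide minus that without. No member passed at an adjusted p under 0.10 (0 of 12 probe sets by limma; 0.136% of all probe sets did), while 6 of 12 had an unadjusted p under 0.05, as did 2050 of 13966 overall. The largest interaction values were those of rau (-1.11, SE 0.27, adjusted p = 0.172), rho (-0.72, SE 0.19, adjusted p = 0.201), Egfr on 151735_at (-0.60, SE 0.16, adjusted p = 0.206) and pnt (0.55, SE 0.17, adjusted p = 0.226). For these genes the effect of 20E was thus not shown to differ with and without cycloheximide, although some were called in only 1 of the comparisons. Without replicate 2 with both agents, rau (adjusted p = 0.0726) and Egfr on 151735_at (adjusted p = 0.0884) passed. For sty the interaction was 0.00 (95% interval -0.24 to 0.24).

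Cycloheximide was also compared over both hormone conditions, 6 arrays against 6, a comparison chosen after the values were seen. Among the probe sets rau was 2.52-fold higher (log2 fold change 1.33, SE 0.13, adjusted p = 0.000151) and Mkp3 on 141660_at was 1.35-fold higher (log2 fold change 0.44, SE 0.06, adjusted p = 0.00172), so that 2 of 12 probe sets were called (2.76% of all probe sets). These and sty were the 3 of 12 probe sets with no overlap between the arrays with and without cycloheximide (2.89% of all probe sets). With log2 of the value plus 16 the Mkp3 call was lost. sty was 1.23-fold higher (log2 fold change 0.29, SE 0.06, adjusted p = 0.00958) and aop 1.28-fold higher (log2 fold change 0.36, SE 0.08, adjusted p = 0.0331), both under the fold limit. Also under that limit, Egfr on 142966_at was lower (log2 fold change -0.19, SE 0.05, adjusted p = 0.0397) and aos higher (0.23, SE 0.07, adjusted p = 0.0768).

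Among 49 other genes of the pathway and of related receptor tyrosine kinase signalling, 41 had a probe set named for them. The rest were not found by name, which does not show that the array lacks them, as 1023 probe sets had no gene name and 327 had several. Of the 41 genes, 5 were called in at least 1 comparison. All of these calls were rises. With cycloheximide relative to no hormone 4 of 41 rose and 0 fell (9.76%, where 4.42% of all probe sets were called), and 5 rose, dos added, with the replicate number as a block. In the comparison of 20E with no hormone 1 rose and 0 fell (2.44%, beside 2.16% of all probe sets), and with 20E plus cycloheximide relative to cycloheximide 1 rose and 0 fell (2.44%, beside 1.25%). The shares in both 20E comparisons rest on 1 gene each and are no result about the list. With a floor of 50 on the intensities, 0 of 41 were called in each of these comparisons. limma called 0 of 41 with 20E plus cycloheximide relative to 20E, where 1.99% of all probe sets were called, and 8 of 41 had an unadjusted p under 0.05 (19.5%, beside 13.9% of all probe sets). For the interaction it called 0 of 41, and 6 had an unadjusted p under 0.05 (14.6%, beside 14.7% of all probe sets). By role, the 4 rises with cycloheximide were 1 of 5 genes for ligands and their processing, 1 of 8 for adaptors and the cytoplasmic core, and 2 of 9 for nuclear effectors and targets, with 0 of 11 negative regulators and 0 of 8 genes of other receptor tyrosine kinases and ligands.

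spi encodes Spitz, the main EGFR ligand and the substrate of Rhomboid-1. Its intensities were 731, 832 and 628 with 20E plus cycloheximide, 525, 591 and 377 with 20E, 459.9, 422 and 378 with cycloheximide, and 392, 358 and 254 with no hormone. All arrays with both agents lay above the other 9. spi rose 1.73-fold with 20E plus cycloheximide relative to cycloheximide (log2 fold change 0.79, SE 0.19, adjusted p = 0.0897). With 20E relative to no hormone its log2 fold change was 0.57 (SE 0.19, adjusted p = 0.186), and the arrays overlapped. The call was lost without no hormone replicate 2, 20E replicate 1, or any replicate with both agents or with cycloheximide (adjusted p 0.121 to 0.296). A floor of 50 or an adjusted p under 0.05 also removed it.

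drk encodes the adaptor that links activated receptors to the Ras exchange factor Sos. Its intensities were 38.1, 45.0 and 40.6 with 20E plus cycloheximide, 37.5, 42.7 and 34.0 with 20E, 53.6, 40.7 and 42.0 with cycloheximide, and 25.1, 26.1 and 21.8 with no hormone. The no hormone arrays lay below all of the other 9. drk rose 1.56-fold with 20E relative to no hormone (log2 fold change 0.64, SE 0.12, adjusted p = 0.0256) and 1.86-fold with cycloheximide relative to no hormone (log2 fold change 0.89, SE 0.12, adjusted p = 0.00217). Of the 12 drk intensities 11 were under 50, and with a floor of 50 both calls were lost, with log2 fold changes of 0.00 and 0.03. The 20E call was also lost without 20E replicate 2 (adjusted p = 0.125).

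rho-4, a rhomboid-family gene, had 292, 301 and 246 with 20E plus cycloheximide, 298, 313 and 267 with 20E, 315, 291 and 257 with cycloheximide, and 246, 223 and 194 with no hormone. It rose with cycloheximide relative to no hormone (log2 fold change 0.38, SE 0.11, adjusted p = 0.0822), and with 20E its log2 fold change was 0.41 (adjusted p = 0.118). The cycloheximide call was lost without no hormone replicate 2 or 3, cycloheximide replicate 1 or 2, or replicate 1 with 20E or with both agents (adjusted p 0.104 to 0.268). It was also lost with quantile normalization, log2 of the value plus 16, a floor of 50, only the arrays compared, or an adjusted p under 0.05.

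lz, a Runx factor gene that acts with Pointed in eye cells, had 43.0, 46.2 and 42.5 with 20E plus cycloheximide, 39.0, 35.6 and 30.2 with 20E, 49.6, 57.1 and 47.0 with cycloheximide, and 38.2, 39.4 and 33.5 with no hormone. It rose with cycloheximide relative to no hormone (log2 fold change 0.47, SE 0.11, adjusted p = 0.0323), a call lost without no hormone replicate 3 (adjusted p = 0.126), with log2 of the value plus 16, and with a floor of 50 (log2 fold change 0.06, adjusted p = 0.48); 11 of the 12 lz intensities were under 50. sina, which encodes a ubiquitin ligase of photoreceptor R7 specification, had 148, 152 and 110.4 with 20E plus cycloheximide, 114, 125 and 105 with 20E, 179, 141 and 130.4 with cycloheximide, and 116, 112 and 87.7 with no hormone. It rose in the same comparison (log2 fold change 0.51, SE 0.15, adjusted p = 0.0874). The call was lost without no hormone replicate 2 or 3, 20E replicate 1 or 3, replicate 1 with both agents, or cycloheximide replicate 1 or 2 (adjusted p 0.105 to 0.293). A floor of 50, only the arrays compared, or an adjusted p under 0.05 also removed it.

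The 4 named probe sets whose log2 values over the 12 arrays were closest to those of rau were CG10383 (Pearson r = 0.98), Pak3, a p21-activated kinase gene (0.98), CG14132 (0.98) and spz, the gene of the Toll ligand Spätzle (0.97). CG10383 averaged 560.2 ± 100.4 with 20E plus cycloheximide, 328 ± 32.9 with 20E, 859.5 ± 112 with cycloheximide and 306 ± 32.5 with no hormone (SD, n = 3 each). spz averaged 164 ± 23.6, 104 ± 29.1, 331 ± 84.3 and 105 ± 10.7 in those groups. All 4 had cycloheximide replicate 1 as their highest array, as rau and aop did. These values describe likeness only, over arrays that share treatments and were picked for it among all probe sets.

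Among the members themselves, rau was most like aop (Pearson r = 0.89 over 12 arrays), and sty was most like Mkp3 on 141660_at (0.87). kek1 was closest to that same Mkp3 probe set (0.68). aos and vn were closest to each other (0.53), rho was closest to rau (0.49) and pnt to vn (0.39). The probe sets 151735_at of Egfr (0.37, with rho), 149030_at of Mkp3 (0.25, with aos) and 142966_at of Egfr (0.02, with rho) had no close partner of another gene.

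**Figure D3:**
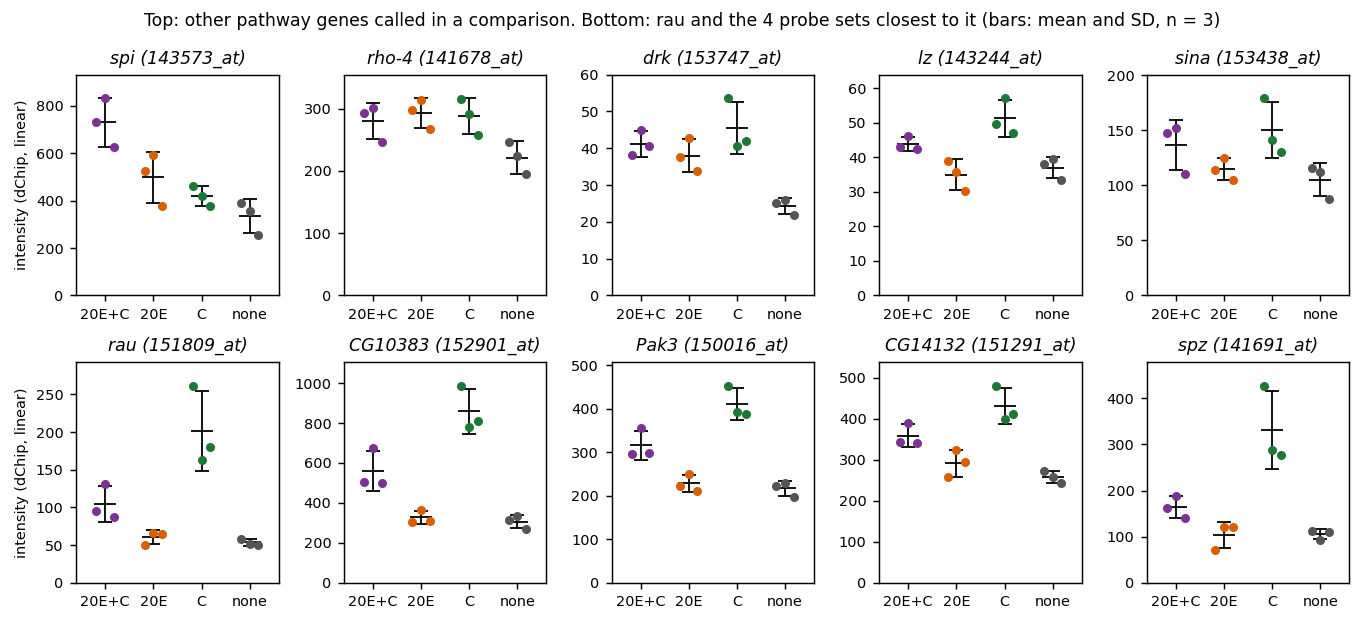
Linear dChip intensity (y axis, from 0, with its own scale in each panel) on each array by treatment (x axis; 20E+C, 20E plus cycloheximide; C, cycloheximide; none, no hormone), with points for replicates 1 to 3 and bars for the mean and SD of 3 arrays. The top row shows the 5 other pathway genes called in a comparison, where spi is highest with both agents (628 to 832) and drk lowest with no hormone (21.8 to 26.1), and the bottom row shows rau and the 4 probe sets most like it, which all peak with cycloheximide.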

How the data were processed

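Total RNA from cultured larval organs was hybridized to 12 Affymetrix Drosophila Genome Arrays. Normalization by the authors used dChip 1.2. The deposited table holds a linear intensity for 13966 probe sets without detection calls, and the number of arrays limits the precision. No column was left without a sample. After a floor of 10, the deposited intensities were turned into log2 values and fitted with limma 3.58.1 in R 4.3.3, in 1 model of all 12 arrays (eBayes with an intensity trend), tested on simulated data. P-values are two-sided, with Benjamini-Hochberg adjustment across the whole array. The limits (adjusted p under 0.10, at least 1.3-fold, no fold limit for the interaction) follow the methods, which used SAM; SAM was not run here. The fold changes are differences of mean log2 values. The cultures were harvested separately, so p-values measure the spread between harvests.

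The members and gene lists were chosen with earlier results of these data known. Every member probe set is named, as is each gene of the pathway list called in a planned comparison, and the 4 probe sets most correlated with the member of largest range. A gene with several probe sets is counted by its brightest (mean log2 value). Names came from the platform's table for 12443 probe sets and from the study's 2 supplementary lists for 105 and 68, while 327 with several genes and 1023 with none stayed unnamed. The supplementary lists hold only genes that the study reported as changed. RefSeq served for names only, and no genome coordinates or sequences were used here. Equal replicate numbers were checked as pairs by correlating deviations from the group means. For cycloheximide and no hormone every equal number correlated best (0.41, 0.21 and 0.29). For 20E plus cycloheximide and 20E, replicates 1 and 2 did (0.39 and 0.55). Replicate 3 did not (0.09, beside 0.23 for another number). Only replicate 3 did for 20E and no hormone (0.36) and for 20E plus cycloheximide and cycloheximide (0.27). The main fit took no account of such pairs. Alternatives changed the floor, the log2 offset, the normalization, the filter, the arrays fitted, the limits and the replicate block, or left out 1 array.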

Additional observations from a re-analysis of the deposited data

How the results depend on the processing

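Of 1584 recomputed values of the members, 1495 kept their status, called or not called, while 66 lost a call and 23 gained 1. Most of the 1495 belong to comparisons not called in the main analysis, so their share does not measure how stable the calls were. None changed sign while called, and 38 changed sign while called in neither analysis. With 20E relative to no hormone (1 gene called) the count was 2 with a floor of 1 or median centring, where pnt was added. The count was 0 with a floor of 50, log2 of the value plus 16, only the arrays compared, without the dimmest probe sets or an adjusted p under 0.05. With 20E plus cycloheximide relative to cycloheximide (1) it was 2 with quantile normalization, and 0 with a floor of 50 or only the arrays compared. With cycloheximide relative to no hormone (4) it was 5 with no fold limit, where sty was added. It was 2 with a floor of 50, log2 of the value plus 16, without the dimmest probe sets or an adjusted p under 0.05. With 20E plus cycloheximide relative to 20E (3) it was 0 with a floor of 50, only the arrays compared or an adjusted p under 0.05. For cycloheximide over both hormone conditions (1) it was 4 with no fold limit. With a single array left out these counts ranged from 0 to 2, 0 to 2, 1 to 4, 0 to 3 and 1 to 2 in that order, and from 0 to 2 for the interaction (0). The causes were not tested. With the replicate number as a block, which pairs arrays of equal number, 3 genes were called with 20E relative to no hormone (rho higher, aos and pnt lower) and 1 for the interaction (rho, adjusted p = 0.0913); the other counts did not move. In the pathway list the block called 3 genes with 20E relative to no hormone, all higher: drk, spi (adjusted p = 0.0175) and rho-4 (adjusted p = 0.00833). It called 2 with 20E plus cycloheximide relative to cycloheximide (spi higher, dos lower). With 20E plus cycloheximide relative to 20E it called 2 (spi higher, adjusted p = 0.021, and Ras85D lower). For the interaction it called 1 (rho-4, adjusted p = 0.0943). Without the block these counts were 1, 1, 0 and 0. Equal numbers correlated best for 20E plus cycloheximide and 20E in replicates 1 and 2 (0.39 and 0.55), not in replicate 3 (0.09). In both 20E comparisons they did so in replicate 3 only. Over all probe sets the counts ranged over the alternatives from 105 to 446 (20E relative to no hormone, 301), 88 to 271 (20E plus cycloheximide relative to cycloheximide, 175), 300 to 1077 (cycloheximide relative to no hormone, 617), 115 to 417 (20E plus cycloheximide relative to 20E, 278), 1 to 274 (interaction, 19) and 295 to 1206 (cycloheximide over both hormone conditions, 385). All rho and aos intensities lay under 50, so a floor of 50 gave them no value. Leaving out the dimmest probe sets removed vn, rho, aos and pnt from the fit, so none of them could be called in that alternative. Of 144 member intensities 25 were under 50, where array signal has the least range above background.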
